A study of Mus musculus with 4 samples.

Results

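The genes described here encode 10 chains of cytokine receptors other than the interleukin 2 receptor: Il7r, Il9r, Il4ra, Il21r, Il6ra, Il6st, Il27ra, Il10ra, Ifngr1 and Il17rb. They were taken by gene symbol from an array of 41345 probe sets, of which 23521 carry a single symbol and stand for 22180 genes. Each of the 10 had 1 such probe set. All 10 lay above the median intensity of all probe sets on every array and were among the 12114 genes tested. The cells were regulatory T cells (Treg), CD4 T cells that restrain immune responses under the transcription factor Foxp3. The anti-DR3 mice had received an antibody that stimulates death receptor 3 (DR3, encoded by Tnfrsf25), and the control antibody mice an isotype control. Both groups were of the strain Foxp3Luci-DTR-4(B6 Albino), in which Foxp3+ cells could be sorted by green fluorescence, and both were sorted 4 days after injection into the peritoneum. There were 2 arrays per group. Nothing in the labels says that replicates were separate mice, so a p-value here measures only the spread between arrays, and the number of arrays limits the precision.

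Cytokine receptors of this kind have no enzyme of their own. A private chain, which binds its cytokine, joins a shared chain, and Janus kinases (JAK) attached to the chains then activate STAT transcription factors. In T cells the chains that are present decide which cytokines the cell can sense. Interleukin 7 sustains resting T cells, interleukin 6 is known to push T cells towards the interleukin 17 lineage and away from Treg fate, and interleukin 10 and interleukin 27 act on Treg in their control of inflammation. Il17rb belongs to another family, which signals through the adaptor Act1 instead of JAK.

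The 10 chains went different ways after anti-DR3. Il9r rose 1.63-fold, while Il4ra and Il6ra fell, being 1.41-fold and 1.37-fold lower than after control antibody, and these 3 passed an adjusted p of 0.05 in limma over all genes tested. The other 7 did not pass. In RNA from sorted bulk cells, fewer cells that express a gene and less RNA per cell cannot be told apart. Among the chains 1 of 10 was called higher and 2 of 10 lower, where of all genes tested 5.96% were called, 4.49% higher and 1.47% lower. At an adjusted p under 0.10 the chains had 4 calls higher and 3 lower, with 9.67% and 4.28% of all genes called. The 2 groups of arrays did not overlap for 9 of the 10 chains, 5 with higher values after anti-DR3 and 4 with lower ones, where 56.1% of all genes tested were without overlap (31.6% higher and 24.6% lower). The median log2 difference of the 10 was 0.16, beside 0.01 over all genes tested. These calls rest on all 4 arrays. Il4ra and Il6ra were not called when any 1 of the 4 arrays was left out, and neither was Il9r. Leaving out anti-DR3 replicate 1 brought the calls over all genes to 33, and leaving out anti-DR3 replicate 2 to 0 in limma (1967 at an unadjusted p under 0.05). They came to 96 once control antibody replicate 1 was dropped and to 312 once its replicate 2 was, against 722 with all 4 arrays.

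**Figure D1:**
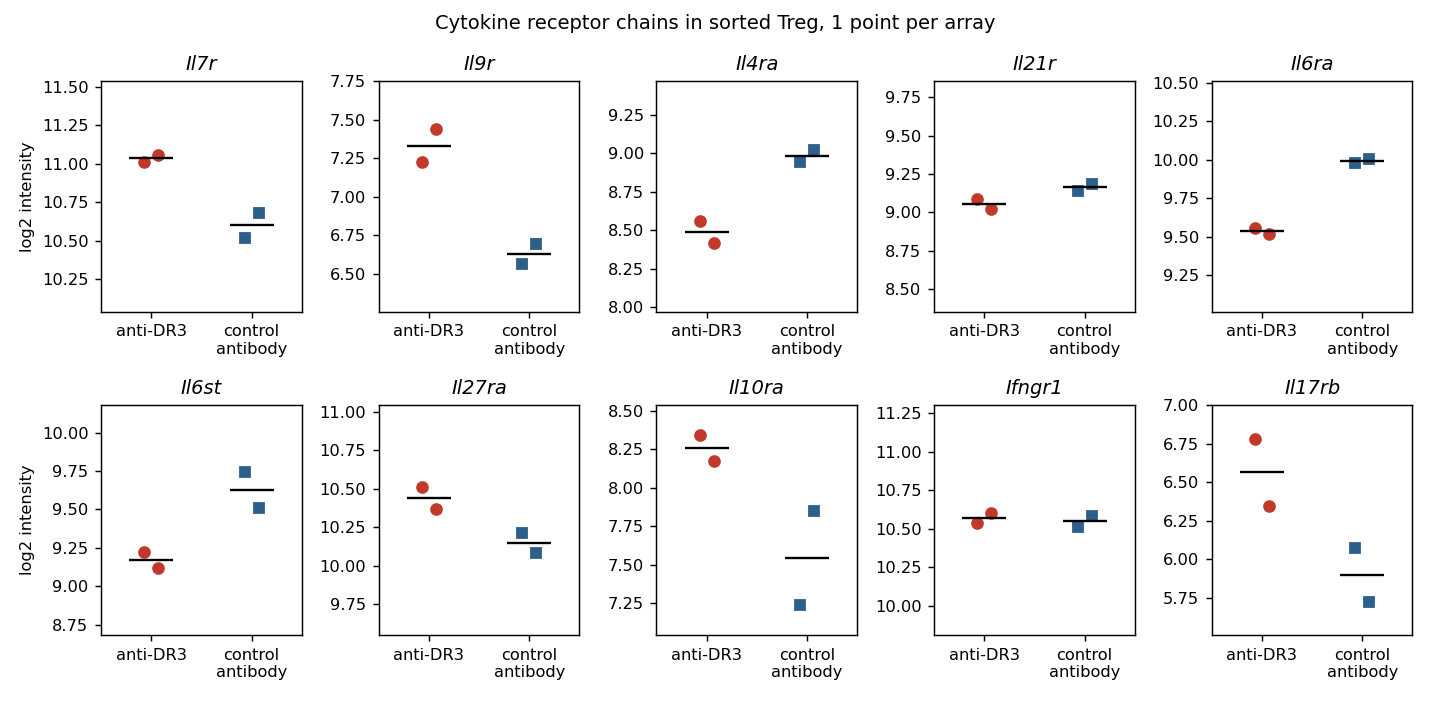
Log2 intensity of each chain (y axis, every panel spanning the same range) in anti-DR3 arrays (red circles, left) and control antibody arrays (blue squares, right), 1 point per array, with the group mean as a black bar. The groups are apart for 9 chains and overlap for Ifngr1.

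Il9r, Il4ra and Il21r, together with Il7r, form receptors with the common gamma chain. The bases before the annotated start of Il9r, which rose, of Il4ra and Il6ra, which fell together, and of Il21r, the next protein-coding gene after Il4ra on chromosome 7, are shown so that the chains that moved can be set beside a neighbour that was not called. They are the 250 bases before each start, 5′ to 3′ on the gene's own strand, from RefSeq on GRCm38.p6, where 8 of the 10 chains had an entry. Il9r is at chr11:32200280-32200529 (minus strand), Il4ra at chr7:125552021-125552270 (plus), Il21r at chr7:125603179-125603428 (plus) and Il6ra at chr3:89913197-89913446 (minus). Capitals mark matches, on both strands, to the letters AGATAA of GATA factors, GTAAACA of forkhead (FOXO) factors, TGANTCA of AP-1, CCGGAA of ETS factors and TTCNNNGAA of STAT factors (the GAS element), and to the NF-kappaB consensus. No matches to different motifs overlapped in these windows.
Il9r: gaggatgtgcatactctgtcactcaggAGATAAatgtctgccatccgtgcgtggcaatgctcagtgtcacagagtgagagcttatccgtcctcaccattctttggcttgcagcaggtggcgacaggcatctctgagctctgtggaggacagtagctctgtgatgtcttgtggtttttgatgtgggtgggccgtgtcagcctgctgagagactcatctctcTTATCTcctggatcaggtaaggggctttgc
Il4ra: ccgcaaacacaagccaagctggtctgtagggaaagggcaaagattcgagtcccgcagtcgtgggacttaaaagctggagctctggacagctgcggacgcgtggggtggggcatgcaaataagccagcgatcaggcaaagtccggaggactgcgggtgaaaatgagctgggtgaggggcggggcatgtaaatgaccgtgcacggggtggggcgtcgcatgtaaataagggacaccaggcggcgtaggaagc
Il21r: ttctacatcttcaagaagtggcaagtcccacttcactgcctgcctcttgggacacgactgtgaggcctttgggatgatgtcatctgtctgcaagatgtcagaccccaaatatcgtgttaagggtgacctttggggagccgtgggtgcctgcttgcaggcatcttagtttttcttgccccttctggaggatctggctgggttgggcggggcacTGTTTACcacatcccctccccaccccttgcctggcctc
Il6ra: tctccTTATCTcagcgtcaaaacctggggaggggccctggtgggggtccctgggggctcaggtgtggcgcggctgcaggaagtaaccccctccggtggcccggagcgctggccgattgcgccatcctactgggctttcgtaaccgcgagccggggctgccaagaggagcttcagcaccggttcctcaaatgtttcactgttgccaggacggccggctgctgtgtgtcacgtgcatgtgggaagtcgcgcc
The Il9r window held 2 GATA matches, and the Il4ra window held no match to any of the 6 motifs. A FOXO match stood in the Il21r window, and the Il6ra window had 1 GATA match. Over the 32851 windows of the same length, 9.99% held a GATA match, with 0.938% holding 2 or more, and 3.17% a FOXO match. The NF-kappaB consensus, found in 7.25% of all windows, had no match before any of the 8 chains. Of the 4 windows not printed here, 1 GAS match stood before Il7r (7.02% of all windows), 1 AP-1 match before Il17rb (6.75%) and 2 ETS matches before Il6st (12% of all windows held at least 1). Such matches describe the letters of these windows alone.

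Il9r binds interleukin 9, a growth factor of mast cells and type 2 lymphocytes. Its intensity was 149 and 174 in anti-DR3 arrays, against 94.5 and 104 in control antibody arrays. Both anti-DR3 arrays were above both control antibody arrays. The log2 difference was 0.70 ± 0.11 (SE, n = 2 arrays per group, adjusted p = 0.0261, limma), with a 95% interval of 0.44 to 0.97, and ranked 231st among rises of all genes tested. With each array left out it lay between 0.60 and 0.81.

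Il7r, the private chain of the interleukin 7 receptor, had intensities of 2063 and 2134 in anti-DR3 arrays, against 1463 and 1643 in control antibody arrays. Every anti-DR3 value was higher, by at least 0.33 on the log2 scale. The difference of 0.44 ± 0.092 (SE, n = 2 per group, 1.35-fold) missed the threshold (limma adjusted p = 0.0519, 95% interval 0.21 to 0.66). It passed with a stricter filter on dim genes (adjusted p = 0.0279, limma) and with a prior that follows intensity (0.00688). Of 13 alternatives to the processing, 3 called Il7r, among them a threshold of 0.10, and 10 did not. Those 10 included centring each array on its median over the genes tested (0.38, adjusted p = 0.0845, limma) and quantile normalization (0.45, adjusted p = 0.0509, limma). Il7r also forms the receptor of thymic stromal lymphopoietin (TSLP) with Crlf2, whose intensity was 229 on each anti-DR3 array, against 195 and 189 on control antibody arrays. For Crlf2 the log2 difference was 0.26 ± 0.077 (adjusted p = 0.108, limma, n = 2 per group).

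Foxo1 is known to hold up Il7r in resting T cells together with Klf2, Ccr7 and S1pr1, which set where T cells travel. Of these 4 genes 0 were called in limma, with 3 lower at an unadjusted p under 0.05, as were 9.57% of all genes tested. Their median log2 difference was -0.43, on the other side of 0 from Il7r, with 3 of the 4 lower on both anti-DR3 arrays, where 24.6% of all genes tested were lower without overlap. Neither Il7r nor any of the 4 was called, and a link between them was not tested. Klf2, the nearest to the threshold, had 390 and 411 after anti-DR3, against 647 and 520 after control antibody (-0.54 ± 0.12, adjusted p = 0.0615, limma, n = 2 per group).

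Il4ra binds interleukin 4 and, beside Il13ra1, interleukin 13. It had intensities of 378 and 342 in anti-DR3 arrays, against 493 and 520 in control antibody arrays. Neither anti-DR3 array reached the lower control antibody array. The log2 difference was -0.49 ± 0.090 (SE, n = 2 per group, adjusted p = 0.0376, limma), with a 95% interval of -0.71 to -0.27. Its neighbour Il21r, the private chain for interleukin 21, had 544 and 519 after anti-DR3, against 565 and 583 after control antibody. These groups were 0.053 apart on the log2 scale, and the difference of -0.11 ± 0.080 did not pass (adjusted p = 0.437, limma, n = 2 per group, 95% interval -0.31 to 0.09).

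Il13ra1, which makes the type II interleukin 4 receptor with Il4ra, had 61.3 and 73.8 after anti-DR3, against 29.8 and 28.2 after control antibody. Both control antibody values were below the median of their array. Il13ra1 therefore entered the test only through the anti-DR3 arrays, where it was high, and its values are given as a description, with no fold, p or ratio to Il4ra.

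Il6ra, the private chain of the interleukin 6 receptor, had intensities of 753 and 733 in anti-DR3 arrays, against 1009 and 1028 in control antibody arrays. The spread within each group was small beside the gap of 0.42 on the log2 scale between them. Il6ra fell by 0.46 ± 0.078 log2 units (SE, n = 2 per group, adjusted p = 0.0321, limma), with a 95% interval of -0.65 to -0.27. Interleukin 6 signals through Il6st (gp130), which the receptors of interleukin 27, interleukin 11, leukaemia inhibitory factor and oncostatin M also use. Il6st had 597 and 556 after anti-DR3, against 857 and 729 after control antibody. Both anti-DR3 arrays were lower, and its difference of -0.46 ± 0.106 was of the same size as that of Il6ra, but it did not pass (adjusted p = 0.0644, limma, n = 2 per group, 95% interval -0.72 to -0.20). It passed once each array was centred on its median over the genes tested (-0.52, adjusted p = 0.0475, limma). Of 13 alternatives to the processing, 4 called Il6st, among them a threshold of 0.10, and 9 did not. Those 9 included quantile normalization (-0.49, adjusted p = 0.0673, limma). The log2 ratio of Il6ra to Il6st overlapped between groups.

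Il6ra can be cut from the cell surface by proteases. Of the 2 listed, Adam17 had 305 and 315 after anti-DR3, against 234 and 226 after control antibody, a rise of 0.43 ± 0.079 in log2 units (adjusted p = 0.0387, limma, n = 2 per group). Adam17 was not called with each array centred on its median over the genes tested (0.37, adjusted p = 0.0583, limma) or after quantile normalization (0.38, adjusted p = 0.0534, limma). Adam10 differed by 0.17 ± 0.097 (adjusted p = 0.326, limma). All these values are of RNA. Neither Il6ra on the cell surface nor its cutting was measured, and a link to the fall of Il6ra RNA was not tested.

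Il27ra pairs with Il6st to sense interleukin 27. It had 1460 and 1322 after anti-DR3, against 1188 and 1084 after control antibody. The anti-DR3 values were the higher ones, by at least 0.15 on the log2 scale, and the difference of 0.29 ± 0.095 did not pass (adjusted p = 0.126, limma, n = 2 per group, 95% interval 0.06 to 0.52). The ratio of Il27ra to Il6st within an array was higher by 0.77 and 0.73 on the anti-DR3 arrays, while the control antibody arrays lay 0.05 either side of their mean. Neither chain was called alone.

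**Figure D2:**
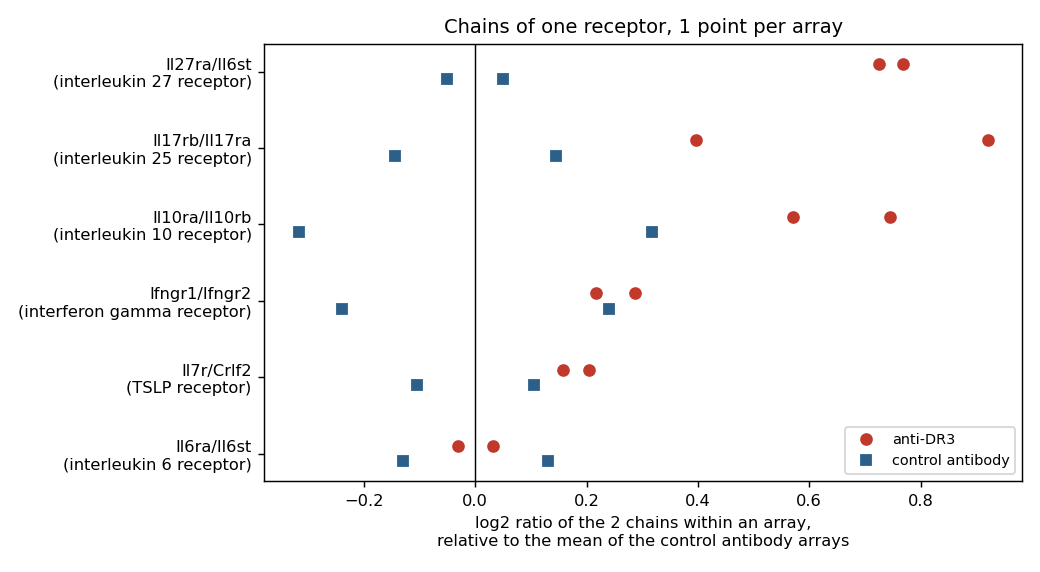
Log2 ratio of 2 chains of one receptor within an array (x axis), relative to the mean of the control antibody arrays, for anti-DR3 (red circles) and control antibody (blue squares), where both chains were above the array median on every array. The ratios of Il27ra to Il6st, Il7r to Crlf2, Il10ra to Il10rb and Il17rb to Il17ra are higher on both anti-DR3 arrays. Those of Il6ra to Il6st and Ifngr1 to Ifngr2 overlap.

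With 2 arrays against 2 an exact permutation test of such a ratio, two-sided, cannot go below p = 0.333, so the ratios are given without a test. The common gamma chain Il2rg had no probe set of a single symbol and is not analysed here, which leaves the receptors of interleukins 7, 4, 21 and 9 without a ratio to it.

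Il10ra, the private chain of the interleukin 10 receptor, had 324 and 288 after anti-DR3, against 151 and 231 after control antibody. Its mean difference was the largest of the 10 chains at 0.71 ± 0.20 on the log2 scale (1.64-fold), and so was its error. It did not pass (adjusted p = 0.0924, limma, n = 2 per group, 95% interval 0.22 to 1.20). Control antibody replicate 1 was the low array: without it the difference was 0.41 (adjusted p = 0.149, limma), and without control antibody replicate 2 it was 1.02 (adjusted p = 0.0366, limma). Its partner Il10rb had 526 and 529 after anti-DR3, against 512 and 504 after control antibody, a difference of 0.05 ± 0.077 (adjusted p = 0.709, limma, n = 2 per group).

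Ifngr1 binds interferon gamma. It had 1485 and 1553 in anti-DR3 arrays, against 1459 and 1534 in control antibody arrays, and was the single chain whose groups overlapped. The difference was 0.02 ± 0.081 (adjusted p = 0.902, limma, n = 2 per group, 95% interval -0.18 to 0.22). The sign turned to -0.04 for Ifngr1 once arrays were centred on their medians over the genes tested. Its partner Ifngr2 had 233 and 232 after anti-DR3, against 314 and 237 after control antibody (-0.23 ± 0.14, adjusted p = 0.359, limma, n = 2 per group).

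Il17rb, the private chain of the receptor for interleukin 25, was the one chain that the stricter filter on dim genes removed. Where the array medians were 40.2 to 42.0, it had 110 and 81.5 after anti-DR3, against 67.4 and 52.9 after control antibody. Both anti-DR3 arrays were higher, and replicates within each group stood apart. The difference of 0.67 ± 0.18 (1.59-fold) did not pass (adjusted p = 0.0833, limma, n = 2 per group, 95% interval 0.23 to 1.11). Its partner Il17ra differed by 0.01 ± 0.082 (adjusted p = 0.964, limma), and the log2 ratio of Il17rb to Il17ra changed by 0.66.

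**Figure D3:**
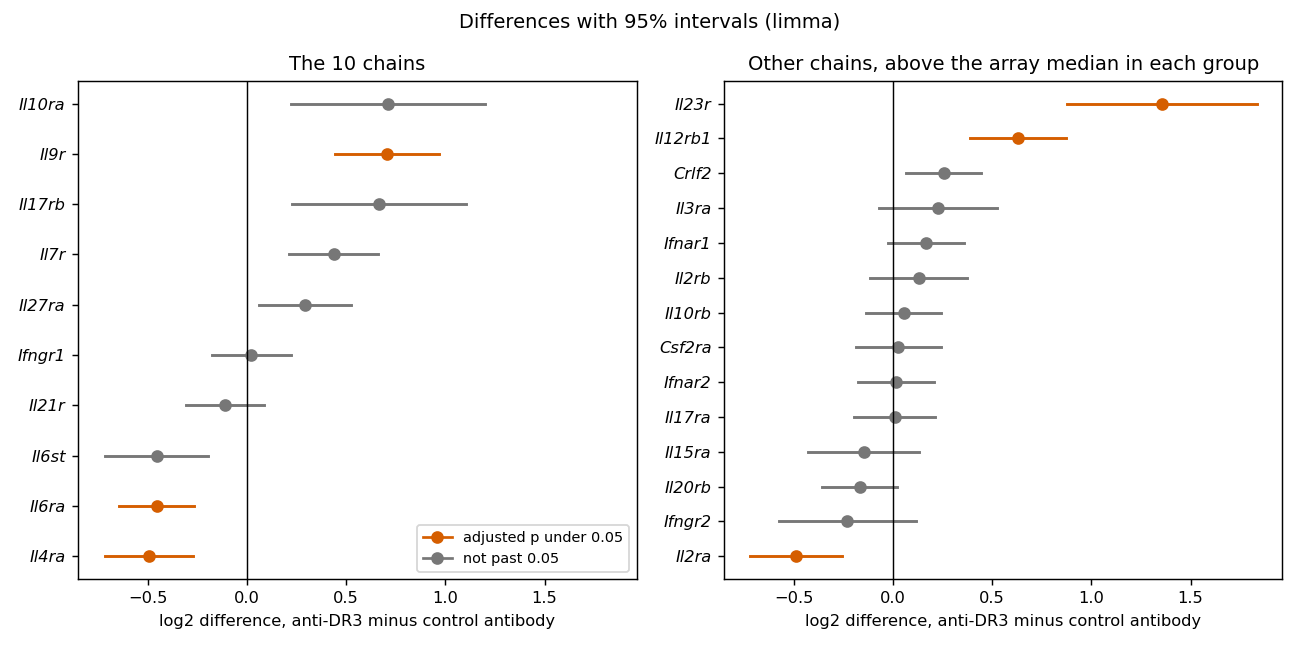
Log2 difference (x axis, anti-DR3 minus control antibody) with its 95% interval from limma for the 10 chains (left) and the other cytokine receptor chains above the array median on at least 1 array of each group (right), orange where the adjusted p was under 0.05. Il9r lies above 0 and Il6ra and Il4ra below it among the 10, and on the right Il23r and Il12rb1 lie above 0 and Il2ra below it.

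Chains outside the 10 also split. Of 10 chains that pair with one of them, 5 were tested, 3 were too dim and 2 had no usable probe set, and the 1 that limma called was Il13ra1, described above as dim in one group. The other 4 were not called and had a median log2 difference of 0.03. Of 29 further cytokine receptor chains, 11 were tested and 16 were too dim. Il12rb2 was above the array medians in the control antibody group alone. Among the other 10 there were 2 rises and 1 fall, with a median of 0.08, where 4.49% of all genes tested rose and 1.47% fell. The rises were Il23r and Il12rb1, which together form the receptor for interleukin 23. Il23r had 142 and 110 after anti-DR3, against 41.2 and 58.0 after control antibody (1.36 ± 0.20, adjusted p = 0.0228, limma, n = 2 per group), and the lower control antibody value was just below the median of its array, 41.6. Il12rb1 had 172 and 158 after anti-DR3, against 100.1 and 113 after control antibody (0.63 ± 0.099, adjusted p = 0.0278, limma). Il12rb2, which completes the interleukin 12 receptor with Il12rb1, had 32.9 and 30.7 after anti-DR3, against 46.8 and 43.1 after control antibody. Both anti-DR3 values were below their array medians, so these values are a description too. Il2ra, the private chain of the interleukin 2 receptor, fell by 0.49 ± 0.095 (adjusted p = 0.0441, limma). Il2ra was not called after quantile normalization (adjusted p = 0.0566, limma). With an array left out, limma called Il23r and Il12rb1 when control antibody replicate 2 was missing and in none of the other 3 fits, and did not call Il2ra in any of the 4.

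Of 18 genes for ligands of the 10 chains, 10 were tested and 8 were too dim, among them Il7, Il6, Il4, Il21 and Il9. Il10 and Ebi3 rose, and 0 fell in limma (2 were lower at an unadjusted p under 0.05), with a median of -0.08 over the 10, beside 4.49% of all genes tested that rose. Il10 had 213 and 233 after anti-DR3, against 158 and 128 after control antibody (0.65 ± 0.12, adjusted p = 0.0407, limma, n = 2 per group), and was not called after quantile normalization (0.60, adjusted p = 0.0524, limma). Ebi3, which with Il27 makes interleukin 27, rose by 0.82 ± 0.096 (adjusted p = 0.0137, limma), while its dim second probe set gave 0.034. Il27 had 102 and 112 after anti-DR3, against 121 and 130 after control antibody, and was not called (-0.23 ± 0.090, adjusted p = 0.179, limma). Of 20 listed kinases, STAT factors, adaptors and inhibitors of cytokine receptor signalling, 18 were tested, with a median difference of 0.07. Among these 18, 1 was called, a share close to the 5.96% called among all genes tested. The 1 was Stat2, which carries type I interferon signals from a receptor outside the 10 chains. Its difference was 0.42 ± 0.082 (adjusted p = 0.0449, limma). Stat2 was not called with arrays centred on their medians over the genes tested (0.36, adjusted p = 0.0636, limma) or after quantile normalization (0.38, adjusted p = 0.0608, limma). With an array left out, limma called Ebi3 when either control antibody array was missing, and did not call Il10, Stat2 or the protease gene Adam17 in any of the 4 fits.

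Il9r and Il17rb are also borne by type 2 innate lymphoid cells and type 2 helper T cells. Of 11 genes of such cells 6 were tested, 2 were too dim and 3 had no usable probe set. Of the 6 tested, 4 rose and 0 fell, with a median log2 difference of 0.77, where 4.49% of all genes tested rose and 1.47% fell. The list was chosen with earlier results of these data known, so its count is a description and no test. Klrg1, a receptor of differentiated lymphocytes, rose 2.78-fold (adjusted p = 0.0102, limma). The chemokine receptors Ccr8 and Ccr4 rose by 0.92 ± 0.11 and 0.92 ± 0.12, and the transcription factor gene Rora by 0.62 ± 0.082 (adjusted p = 0.0136, 0.0187 and 0.0187, limma, n = 2 per group). These genes are known in effector Treg as well. Without anti-DR3 replicate 2 limma called none of the 4. It called Klrg1 when replicate 1 of either group was left out, and Klrg1 and Ccr4 when control antibody replicate 2 was. The transcription factor gene Gata3 was not called (0.24 ± 0.086, adjusted p = 0.147, limma), and its other probe set gave a log2 difference of -0.17. The effector cytokine gene Il5 was too dim to be tested, and Il13 differed by -0.09 ± 0.13 (adjusted p = 0.699, limma).

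Markers of cells that could carry these receptors beside Treg were read on the same arrays. Foxp3 had 3891 and 3825 after anti-DR3, against 3805 and 3581 after control antibody (adjusted p = 0.671, limma). Of the 6 Treg markers listed, all tested, Ikzf2 rose (0.58 ± 0.077, adjusted p = 0.0193, limma), Il2ra fell, as given above, and the other 4, Foxp3 among them, were not called. Tnfrsf25 had 198 and 182 after anti-DR3, against 176 and 160 after control antibody (adjusted p = 0.305, limma). Summed intensities of the 5 measured markers of type 2 innate lymphoid cells (3 more had no usable probe set), of which 2 rose, were 2039 and 2342 after anti-DR3, against 1205 and 1079 after control antibody. Klrg1 made up most of that, and the other 4 markers summed to 783 and 804 after anti-DR3, against 655 and 623 after control antibody. All 5 markers of mast cells and basophils, which also bear Il9r and Il4ra, were too dim to be tested, with sums of 81.8 to 84.9 after anti-DR3 and 80.6 to 85.9 after control antibody. The 6 measured B cell markers summed to 4225 and 4443 after anti-DR3, against 2759 and 2988 after control antibody. Ighm made up most of that and was the 1 B cell marker called, while its 6 other probe sets ran from -0.36 to 1.18 in log2 difference, and Cd79a, Ms4a1 and Pax5 were too dim to be tested. Sums of the 6 monocyte and macrophage markers, cells that bear Il6ra, Il10ra and Ifngr1, were 328 and 371 in anti-DR3 arrays, against 278 and 311 in control antibody arrays. Csf1r was the 1 marker called, and it rose. Lyz2 and Cd68 were not called, and Itgam was above the array medians in the anti-DR3 group alone. Cd14 and Adgre1 were too dim to be tested, and Adgre1 was lower after anti-DR3 (25.6 and 26.4, against 33.3 and 32.3). For the 5 markers of conventional CD4 T cells, which bear Il7r and Il6ra, the sums were 279 and 270 in anti-DR3 arrays, against 389.9 and 382 in control antibody arrays, with falls of Igfbp4 and Pde3b and with Il2 and Dapl1 too dim. Markers of plasma cells, dendritic cells and natural killer cells had 1 tested member each, which was not called, and of the 2 CD8 T cell markers Cd8b1 rose and Cd8a was too dim. The part of other cells in the differences above was not tested.

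For the 3 called chains, the genes with the closest profile were found by the root mean square distance of log2 values, centred per gene, over the 4 arrays. Nearest to Il9r were Vcpkmt and Tk1 (distances of 0.021 and 0.024), nearest to Il4ra were Lypd6b and Snord23 (0.016 and 0.022), and nearest to Il6ra were Slamf8 and Nbn (0.011 and 0.016). With 4 arrays such distances describe the pattern and nothing else.

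**Figure D4:**
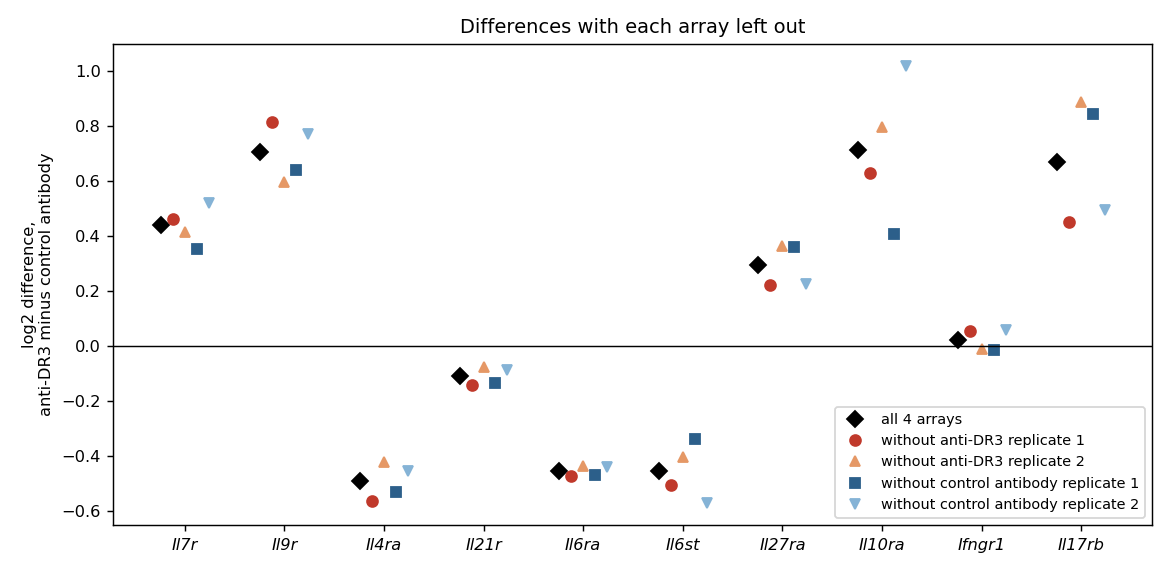
Log2 difference of each chain (y axis, anti-DR3 minus control antibody) with all 4 arrays (black diamonds) and with 1 array left out (coloured marks). Il10ra ranges from 0.41 to 1.02 and Il17rb from 0.45 to 0.89, while Il6ra stays between -0.48 and -0.44.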

How the data were processed

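Total RNA of sorted mouse Treg was measured on 4 Affymetrix whole-transcript arrays, 2 after anti-DR3 and 2 after control antibody. The deposited table holds linear intensities, made by the authors with RMA, which corrects background, normalizes between arrays and summarises probes, per the submitters' processing notes. What software and build were used is not given in the sources used here. That the scale is linear was judged from the range of the values, and log2 was taken first. Normalization between arrays can hide a change shared by all genes.

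Gene names came from the platform annotation, and all 10 chains matched RefSeq by Entrez identifier. Of the 41345 probe sets, 1814 with several symbols and 16010 with none listed were left out of gene tests. A gene was represented by its brightest probe set and tested if above the array median on at least 2 arrays, which set 10066 genes aside as dim. The comparison used lmFit and eBayes of limma 3.58.1 under R 4.3.3 (two-sided, 2 residual and 3.94 prior degrees of freedom), with Benjamini-Hochberg adjustment over all 12114 genes and a threshold of 0.05. The correlation over genes tested was 0.992 between anti-DR3 replicates, 0.989 between control antibody replicates, and 0.975 to 0.980 across groups. The code was tested on simulated data. Figures were drawn with matplotlib 3.10.9.

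The 10 chains and all gene lists were chosen with earlier results of these data known, so their counts of calls are descriptions. Beside the 10 chains, Tnfrsf25 and Foxp3, the text names called members of each list, up to 4 by the moderated statistic, or else the member with the largest one. Other genes named, partners of a chain and markers, were named with their values seen. Alternatives changed the filter, normalization, the prior, the probe set, the threshold and the arrays used, or added a replicate block.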

Additional observations from a re-analysis of the deposited data

How the results depend on the processing

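Over 13 alternatives for each chain (12 for Il17rb, too dim for the stricter filter), 93 values were called, or not called, as with the settings of the report, 20 were no longer called, 13 were newly called and 3 changed sign. All 3 were of Ifngr1. Its difference was -0.011 when anti-DR3 replicate 2 was left out and -0.015 when control antibody replicate 1 was (range -0.015 to 0.058 over the arrays left out). It was -0.039 with each array centred on its median over the genes tested. Leaving out single arrays, where the remaining array of that group is taken to vary as the other group does, limma gave 0 to 312 genes (0 to 245 higher, 0 to 67 lower), 0 to 1 of the 10 chains higher and 0 lower, and over the 7 fixed lists together 0 to 6 higher and 0 to 1 lower, against 722, 544, 178, 1, 2, 11 and 2 (Il13ra1 and Il12rb2, each dim in one group, are counted in the last 2); 1967 genes had an unadjusted p under 0.05 in the fit with 0 calls. With no filter on dim genes limma called 14 genes, 14 higher and 0 lower, with 3573 at an unadjusted p under 0.05, 0 chains either way, and 0 list members either way. The stricter filter (above the 60th percentile on all 4 arrays) gave 1157 genes (860 higher, 297 lower), 2 chains higher and 3 lower, and 4 list members lower. The trended robust prior gave 1444 (1082 higher, 362 lower), 4 chains higher and 3 lower, and 4 list members lower. An adjusted p under 0.10 gave 1689 (1171 higher, 518 lower, or 9.67% and 4.28% of genes), 4 chains higher and 3 lower, and 5 list members lower. Every probe set on its own gave 0 genes, 0 higher and 0 lower, with 4121 at an unadjusted p under 0.05, and 0 chains and 0 list members in either direction. Centring each array on its median over the genes tested gave 348 genes higher and 243 lower, with 1 chain higher and 3 lower, and quantile normalization 0 list members lower. The causes were not tested. What a replicate number stands for is not in the labels; deviations of same-numbered arrays correlated at 0.0512 over 2 pairs, too few to show pairing. The replicate block gave 563 genes, 2 chains higher (Il9r and Il17rb, adjusted p = 0.0312 for Il17rb, limma) and 0 lower (Il6ra 0.0537, Il4ra 0.0610), and of the other called genes named from the lists it no longer called Il10 (0.0633), Stat2 (0.0601) or Adam17 (0.0623).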
